A study of Mus musculus with 4 samples.

Results

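Open chromatin was described here at 10 genes of the lysosome in mouse bone marrow-derived macrophages (BMDMs) that were left untreated or stimulated with IL-4. The genes are the lysozymes Lyz1 and Lyz2, the cathepsins Ctsb, Ctsd, Ctsk, Ctsl, Ctss and Ctsz, the asparaginyl protease legumain (Lgmn) and the lysosomal membrane protein Lamp1. The members were 61 of 60710 accessible regions. A region is a stretch in which peaks of the 4 libraries overlapped by at least 1 bp, and it was given to the gene with the nearest transcription start site (TSS) of its highest peak. The number of regions per gene ran from 3 at Lamp1 to 12 at Lgmn.

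ATAC-seq cuts open DNA with the Tn5 transposase, so that a peak of reads marks accessible chromatin. All 4 libraries came from wild-type mice on a C57BL/6 background aged 8 to 12 weeks, whose bone marrow cells had been cultured for 6 days with L929 supernatant, a source of the macrophage growth factor M-CSF. The 2 control libraries received no IL-4, and the 2 IL-4 libraries received 20 ng/ml for 1 h, which addresses whether accessibility changes early after IL-4. The methods call the libraries of a group biological replicates without saying whether each came from its own mouse, so p-values measure the spread between these libraries, which may be technical.

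Lysosomes digest material that a macrophage has engulfed. Lysozyme cleaves the peptidoglycan of bacterial cell walls, cathepsins and legumain cleave proteins and also activate one another, and Lamp1 coats the lysosomal membrane. Many lysosomal genes carry in their promoters an E-box, TCACGTG, that is bound by TFEB and its relative MITF, whereas IL-4 acts through the transcription factor STAT6, which binds palindromes such as TTCNNNNGAA. PU.1, C/EBP, AP-1 and RUNX factors occupy enhancers, which are regulatory regions away from promoters, in macrophages.

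The E-box marked 3 of the 9 promoter regions of these genes (33.3%), those of Lamp1, Ctsd and Ctsb, against 4.68% of the 11416 promoter regions of all genes. The bases before these TSSs are shown because they hold the motif in the interval where the peaks lay, with E-boxes of either strand in capitals. They are RefSeq sequence of GRCm38.p6 (mm10), 5′ to 3′ on the strand of the gene, namely chr8:13159061-13159160 (plus), chr7:142387828-142387947 (minus) and chr14:63122402-63122461 (plus).
Lamp1: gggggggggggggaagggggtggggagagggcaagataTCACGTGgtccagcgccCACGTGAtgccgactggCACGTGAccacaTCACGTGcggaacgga
Ctsd: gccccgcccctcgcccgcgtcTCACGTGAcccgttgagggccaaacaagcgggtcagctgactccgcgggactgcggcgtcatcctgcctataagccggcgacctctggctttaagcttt
Ctsb: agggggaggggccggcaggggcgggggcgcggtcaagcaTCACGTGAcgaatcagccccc

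In the Ctsd and Ctsb promoters the E-box is a full palindrome that reads the same on both strands. The Lamp1 region holds such palindromes too, after the TSS and beyond the bases shown, at chr8:13159220-13159227 and chr8:13159247-13159254. The window of 100 bp to either side of the centre of the highest peak held TCACGTG in 5 of the 61 regions (8.20%) and in 2.44% of all regions, and the other 2 regions were those at −19265 and +1372 bp of Ctsb, each with a peak in 1 library. The 300 bp window of a second Lgmn promoter (chr12:102439043-102439342) also held the E-box, but no region overlapped it. A match is a description of the letters and not evidence that a factor was bound.

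Regions away from the promoters held letters of other factors. The windows below are shown because each belongs to the region outside the promoter that had the highest mean score as deposited in its gene, for 7 of the genes. Capitals mark TGACTCA or TGAGTCA (AP-1), GAGGAAGT (PU.1), TTGCNNAA (C/EBP) and TGTGGTT (RUNX) on either strand, and the PU.1 and C/EBP letters of Ctsd overlap by 1 base. All are mm10 sequence on the plus strand, from chr7:142399404-142399604 (Ctsd), chr12:102426450-102426650 (Lgmn), chr14:63132375-63132575 (Ctsb), chr3:95511825-95512025 (Ctsk), chr13:64398157-64398357 (Ctsl), chr3:95529931-95530131 (Ctss) and chr10:117285040-117285240 (Lyz2).
Ctsd, intergenic, −11634 bp from the TSS: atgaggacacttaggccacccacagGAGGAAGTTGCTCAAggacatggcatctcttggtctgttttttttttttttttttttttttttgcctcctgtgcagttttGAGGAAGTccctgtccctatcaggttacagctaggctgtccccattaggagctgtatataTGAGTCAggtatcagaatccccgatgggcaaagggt
Lgmn, intron 1, +13147 bp: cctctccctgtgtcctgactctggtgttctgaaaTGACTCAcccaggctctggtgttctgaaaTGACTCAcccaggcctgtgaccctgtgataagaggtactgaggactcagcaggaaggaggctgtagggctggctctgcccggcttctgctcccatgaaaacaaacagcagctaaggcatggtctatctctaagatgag
Ctsb, intron 1, +10013 bp: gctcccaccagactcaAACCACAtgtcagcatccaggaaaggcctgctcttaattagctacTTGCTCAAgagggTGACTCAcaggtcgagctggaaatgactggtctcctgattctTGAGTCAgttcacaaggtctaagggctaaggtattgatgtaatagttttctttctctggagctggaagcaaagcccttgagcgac
Ctsk, intergenic, +12639 bp: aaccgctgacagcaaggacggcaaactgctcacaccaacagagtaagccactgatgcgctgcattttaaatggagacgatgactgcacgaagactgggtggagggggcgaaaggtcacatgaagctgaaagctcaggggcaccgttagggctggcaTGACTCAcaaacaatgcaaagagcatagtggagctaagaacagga
Ctsl, intergenic, −27951 bp: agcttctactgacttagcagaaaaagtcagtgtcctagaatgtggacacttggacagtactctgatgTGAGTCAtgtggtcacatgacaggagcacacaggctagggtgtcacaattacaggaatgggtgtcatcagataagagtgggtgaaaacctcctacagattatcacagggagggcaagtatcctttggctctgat
Ctss, intron 2, +3245 bp: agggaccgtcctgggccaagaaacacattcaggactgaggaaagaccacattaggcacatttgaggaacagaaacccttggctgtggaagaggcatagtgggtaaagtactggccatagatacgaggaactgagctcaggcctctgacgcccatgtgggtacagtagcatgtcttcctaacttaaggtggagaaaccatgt
Lyz2, intergenic, −2868 bp: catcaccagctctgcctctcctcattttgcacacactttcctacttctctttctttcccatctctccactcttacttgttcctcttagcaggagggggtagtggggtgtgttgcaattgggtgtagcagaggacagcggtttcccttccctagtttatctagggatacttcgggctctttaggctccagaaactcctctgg

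The windows of Lgmn and Ctsb each hold 2 AP-1 motifs and those of Ctsd, Ctsk and Ctsl 1 each, whereas those of Ctss and Lyz2 hold none of the motifs searched. The highest regions outside promoters of Ctsz and Lyz1, whose windows are not printed, hold no AP-1 motif either. Both of those windows hold the STAT6 palindrome and C/EBP letters, and that of Lyz1 also holds PU.1 letters. Over the windows of the 61 regions the STAT6 palindrome TTCNNNNGAA was found in 4 (6.56%) against 6.35% of all regions, and AP-1 in 11 (18.0%) against 17.1%. PU.1 letters stood in 7 regions (11.5% against 9.33%), RUNX in 6 (9.84% against 7.38%) and C/EBP in 11 (18.0% against 10.7%). The related STAT letters TTCNNNGAA were in 2 regions (3.28% against 5.90%).

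Lyz1 and Lyz2 are neighbouring copies of one gene, and their promoters are shown to let a reader see how alike they are. Capitals mark bases without an identical partner in the alignment, and the sequences run up to the TSS on the minus strand, at chr10:117282273-117282422 for Lyz2 and chr10:117292869-117293018 for Lyz1.
Lyz2: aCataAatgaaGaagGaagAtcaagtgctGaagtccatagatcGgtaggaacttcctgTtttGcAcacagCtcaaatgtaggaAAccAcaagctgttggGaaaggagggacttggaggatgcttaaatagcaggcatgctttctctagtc
Lyz1: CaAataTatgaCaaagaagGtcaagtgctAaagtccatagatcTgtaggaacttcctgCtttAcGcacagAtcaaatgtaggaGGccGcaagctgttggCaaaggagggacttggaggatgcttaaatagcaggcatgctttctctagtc

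Of the 150 bases before each TSS, 135 were identical over 152 alignment columns (88.8%). The RUNX letters, read on the opposite strand as AACCACA, were present in Lyz2 and lay on mismatched bases in Lyz1. The 300 bp promoter window held 1 CpG in Lyz2 and 2 in Lyz1, whereas it held 33 in Ctsd, 19 in Lamp1, 18 at the Lgmn TSS with a peak, 12 in Ctsz, 10 in Ctsl, 5 in Ctss and 2 in Ctsk. The median of all 32851 promoters was 7, so the lysozyme promoters and that of Ctsk were poor in CpG and those of Ctsd, Lamp1 and Lgmn rich.

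Control replicates 1 and 2 had 45250 and 41885 peaks, and IL-4 replicates 1 and 2 had 41978 and 39462. Each peak score was taken to be the −log10 q-value of MACS2, a measure of evidence that grows with sequencing depth, and the depth is unknown because no counts were given. IL-4 replicate 2 had the fewest peaks, the lowest median score (6.41 against 7.46 to 8.04) and the smallest covered length (7.974 Mb against 9.265 to 10.267 Mb), and its part in the results was not tested except where values without it are given. A promoter peak was listed in every library for 3 of 7 macrophage markers (Cd68, Fcgr1 and Spi1), and 6 of the 7 had a region of some kind, the exception being Adgre1. No promoter region was found for the 3 T cell, 3 B cell, 3 fibroblast or 4 osteoclast markers examined, while S100a8 of 4 neutrophil markers had one in all 4 libraries and both dendritic cell markers, Flt3 and Zbtb46, in 3. Of 2 mast cell markers Kit had a promoter peak in 2 libraries. A region of some kind was found for 3 of 4 osteoclast, 3 of 4 neutrophil and 1 of 3 T cell markers. The same held for 2 of 2 mast cell and 2 of 2 dendritic cell markers, and for no B cell or fibroblast marker. A mixture of cells and a change within each cell cannot be told apart in bulk libraries.

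A peak was listed in all 4 libraries at 30 of the 61 regions (49.2%), against 41.9% of all regions. Another 9 had a peak in 3 libraries, 10 in 2 and 12 in 1. Peaks were present at 45 and 51 of the 61 regions in control replicates 1 and 2 and at 45 and 38 in the IL-4 replicates. The regions comprised 9 promoters, 21 introns, 26 intergenic stretches, 1 exon, 2 3′ UTRs and 2 ends of transcripts, and 35 (57.4%) lay within 10 kb of the TSS against 43.3% of all regions. The nearest TSS is not proof of a target, since 8 regions lay inside another gene, with 4 of Lgmn in Rin3, 3 of Ctsk in Arnt and 1 of Ctsb in Fdft1.

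**Figure D1:**
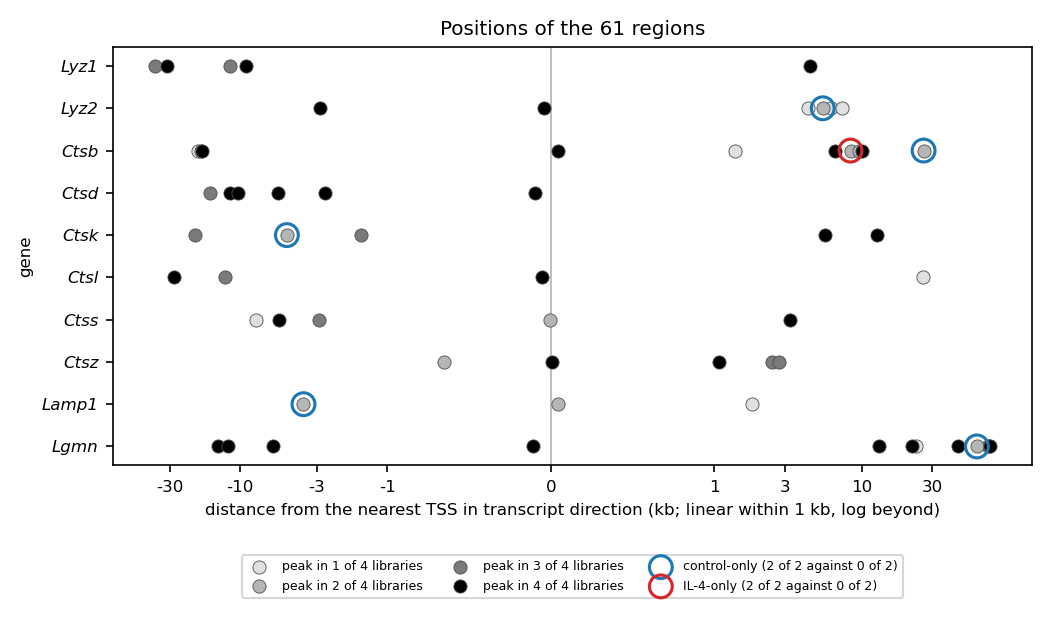
Distance of each of the 61 regions from its TSS in kb (x axis, linear within 1 kb and logarithmic beyond) for each gene (y axis), with darker points for peaks in more libraries and rings for regions found in one group only. Most genes combine a promoter region with distal ones, Lyz1 and Ctsk have no promoter region, and the rings mark 5 control-only regions and 1 IL-4-only region.

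At the promoters of Ctsl, Lgmn and Ctsd the peak scores of the groups lay close together. At the Ctsl promoter (−56 bp, chr13:64370203-64370726), which drives a cysteine protease of broad tissue distribution, the scores were 15.66 and 16.35 in control and 16.17 and 16.02 after IL-4. The 4 libraries were thus within 1 unit of score and the groups overlapped. After quantile normalisation of the log2 scores the change was 0.22 ± 0.33 (SE, n = 2 libraries per group; limma, adjusted p = 0.920).

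The Lgmn promoter (−109 bp, chr12:102439643-102439960) was the highest region of the 30 by mean normalised score, at the 85.3th percentile of all 25442 regions found in all 4 libraries. Its scores were 18.77 and 20.84 in control and 17.79 and 20.79 after IL-4, so the libraries of the groups interleaved. Ctsd codes for the aspartic protease of the lysosome, and its promoter (−96 bp, chr7:142387781-142388152) scored 12.27 and 11.48 in control and 11.26 and 11.15 after IL-4. The IL-4 libraries were slightly lower as deposited and interleaved with control after normalisation. The log2 changes were 0.14 ± 0.30 for Lgmn and 0.16 ± 0.41 for Ctsd (limma, adjusted p = 0.940 and 0.953).

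Ctsb, the cysteine protease cathepsin B, and Ctsz, a carboxypeptidase, were the 2 promoters whose groups did not overlap after normalisation, in opposite directions. The Ctsb promoter (+42 bp, chr14:63122391-63122934) scored 12.78 and 7.52 in control against 7.59 and 4.70 after IL-4, where 1 IL-4 library lay just above the lower control library as deposited. Its log2 change was −0.50 ± 0.50 (limma, adjusted p = 0.856), and it ran from −0.23 without control replicate 1 to −0.78 without control replicate 2. The Ctsz promoter (+7 bp, chr2:174438827-174439162) scored 6.54 and 8.77 in control and 11.02 and 9.36 after IL-4. The controls lay below both IL-4 libraries, with a log2 change of 0.68 ± 0.48 (limma, adjusted p = 0.759), which was 0.36 without control replicate 1.

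Over the 6 promoter regions found in all 4 libraries, 1 had both IL-4 libraries below both controls, against 14.9% of all such promoters, and 1 had both above, against 20.1%. Their median log2 change was 0.19, beside 0.04 for the 7920 promoters of all genes. The remaining 3 promoter regions were weak and were found in control replicate 2 and 1 IL-4 library each. Ctss, which trims the invariant chain of MHC class II, scored 5.62 and 3.24 at its TSS (−3 bp, chr3:95526706-95526860). The Lamp1 promoter (+46 bp, chr8:13159085-13159275) scored 4.71 and 3.57, and the second Ctsz promoter region (−655 bp, chr2:174439577-174439714) scored 5.69 and 5.75.

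Away from promoters IL-4 libraries more often had the lower scores, although no single region passed the test. Of the 24 regions outside promoters found in all 4 libraries, 10 (41.7%) had both IL-4 libraries below both controls in normalised scores. The share was 20.2% of the 17522 such regions of all genes. In the other direction 2 of 24 had both above, against 18.9%. The median log2 change of the 24 was −0.30, beside −0.02 for all genes, and 16 of them (66.7%) were negative against 52.0% of all. The members of 1 gene share a locus and are not replicates of the treatment.

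Over all 30 regions 11 lay below (36.7%) against 18.6% of all regions, and 3 lay above (10.0%) against 19.2%. In the scores as deposited, an alternative chosen after seeing the data, 13 were below against 29.3% and 3 above against 8.83%. When IL-4 replicate 2 was left out, IL-4 replicate 1 was below both controls at 14 of the 30 (46.7%) against 34.1% and above both at 6 (20.0%) against 34.7%. The median scores of the 30 regions were 11.97 and 10.41 in control and 9.145 and 6.315 after IL-4, whereas those of all 25442 regions were 12.52, 11.01, 11.14 and 8.86.

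None of the 30 regions passed the test after adjustment. With limma at an adjusted p of 0.05, 0 of 30 were called higher and 0 lower, against 0.0157% and 0.00786% of all regions, which are 4 and 2 regions. At an unadjusted p under 0.05, 1 region was higher against 4.12% of all and 3 were lower against 4.15%. The adjusted p of the 30 ran from 0.4145 to 0.9815, and their log2 changes from −1.21 to 0.97 with a median of −0.15. That median was 0.01294 over the 16 regions left with a minimum score of 5, and 4.946e-05 without IL-4 replicate 1. The minimum drops regions for a low score in any library, including after IL-4.

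**Figure D2:**
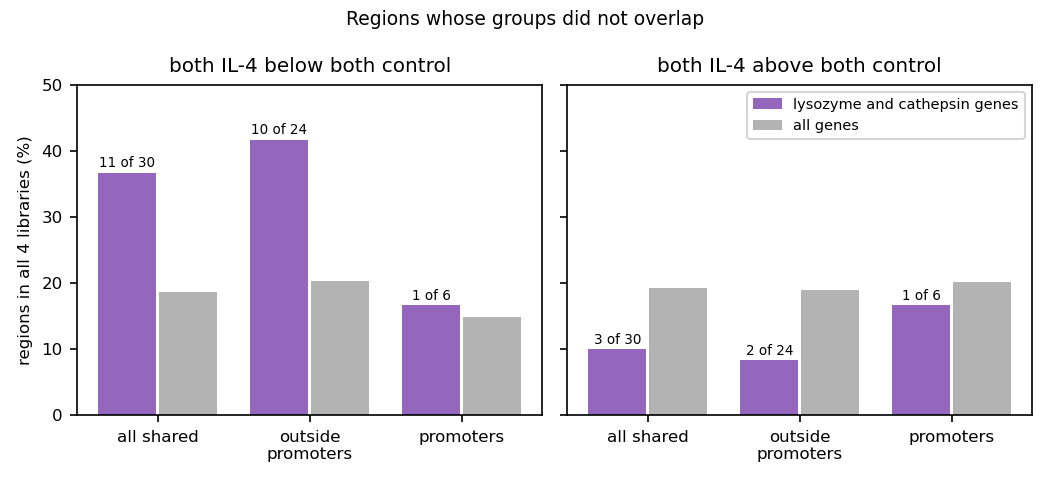
Share of regions found in all 4 libraries (y axis, percent) whose groups did not overlap in normalised score, with IL-4 below control on the left and above on the right, for lysozyme and cathepsin genes (purple, counts above the bars) and all genes (grey). Outside promoters 10 of 24 regions lay below against 20.2% of all genes, and at promoters 1 of 6 against 14.9%.

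**Figure D3:**
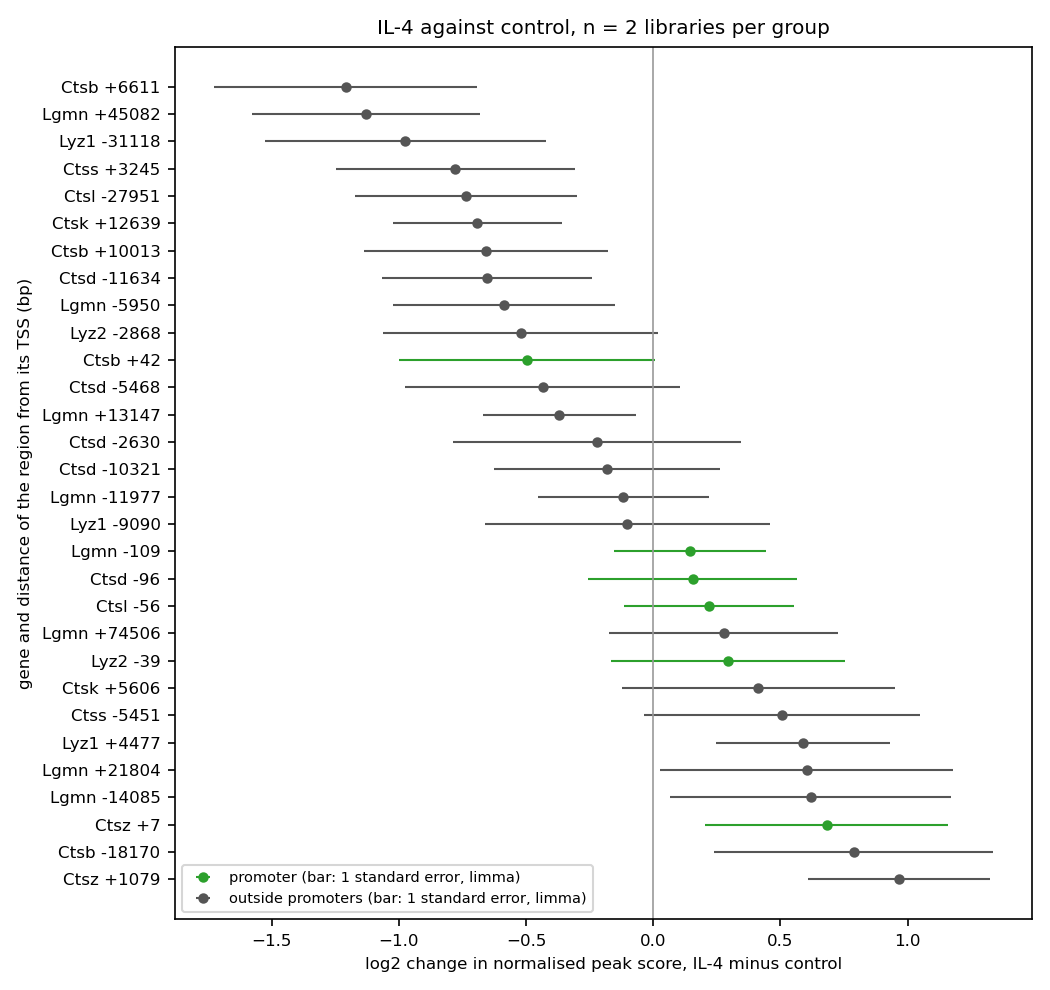
Log2 change of the normalised peak score, IL-4 minus control, with 1 standard error from limma (x axis), for the 30 regions found in all 4 libraries, named by gene and distance from the TSS in bp (y axis). Promoters are green and centre near 0 except Ctsb and Ctsz, and the changes run from −1.21 at Ctsb +6611 to 0.97 at Ctsz +1079.

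Ctsb (Entrez 13030, chr14:63122462-63145923) held 10 regions. Within its long first intron the region at +6611 bp (chr14:63128738-63129409) had the most negative change of the 30 in this fit, with scores of 13.03 and 10.25 in control and 5.71 and 3.16 after IL-4. Both IL-4 libraries were well below both controls, with a log2 change of −1.21 ± 0.52 (limma, adjusted p = 0.537), which was −0.71 with the scores of a region summed. The region at +10013 bp (chr14:63132330-63132613), whose window holds 2 AP-1 letters, was the highest of the gene, with 10.85 and 13.56 in control and 9.19 and 4.68 after IL-4. It was also below both controls, with a change of −0.66 ± 0.48 (limma, adjusted p = 0.768), which was −0.33 without IL-4 replicate 2 and −0.41 without control replicate 2.

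Between those regions of Ctsb stood the IL-4-only region of the set, at +8389 bp (chr14:63130717-63130927) with scores of 6.74 and 3.85. IL-4-only means a peak in both IL-4 libraries and in neither control library, which held for 1 of the 61 regions against 2.53% of all regions. Its window has an AP-1 motif, TGAGTCA, at its centre. Upstream, at −18170 bp (chr14:63104204-63104366), a weak region scored 2.83 and 2.66 in control and 3.50 and 5.20 after IL-4, so that the direction was the opposite of the intron (log2 change 0.79 ± 0.55; limma, adjusted p = 0.758). That change was 1.28 without IL-4 replicate 1 and 0.40 without IL-4 replicate 2. Intron 1 of Ctsb thus held a region listed only after IL-4 between 2 regions whose scores were below both controls. Those 2 did not pass the test, and the IL-4-only region was not fitted.

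Control-only regions, with a peak in both controls and neither IL-4 library, numbered 5 of the 61 against 4.33% of all regions, with scores of 3.44 to 8.78. Ctsb had one at +26296 bp in intron 7 of Fdft1 (chr14:63148653-63148822; 3.44 and 7.53), and Lgmn had one at +60515 bp in intron 7 of Rin3 (chr12:102379080-102379269; 3.79 and 8.78). The Ctsk one lay at −4791 bp in exon 20 of Arnt (chr3:95494442-95494588; 4.97 and 5.27), and the Lyz2 one at the transcript end at +5437 bp (chr10:117276778-117276940; 4.11 and 5.02). At Lamp1 the control-only region was intergenic at −3697 bp (chr8:13155283-13155607; 4.92 and 6.36). With a minimum score of 5 per peak, 2 control-only regions and 0 IL-4-only regions were counted. The share of all regions at that minimum is not given here, and the 4.33% above does not apply to it.

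Lgmn (Entrez 19141, chr12:102394082-102439728) held the most regions, 12, and 8 of them were found in every library. Near its 3′ end the region in intron 13, at +45082 bp (chr12:102394478-102394772), scored 16.93 and 14.59 in control and 8.05 and 4.69 after IL-4. The groups were clearly apart, with a log2 change of −1.13 ± 0.45 (limma, adjusted p = 0.470). The tall region in intron 1 at +13147 bp, named after its values were seen because its window is printed above, scored 25.03 and 20.10 in control and 17.45 and 13.27 after IL-4. Both IL-4 libraries were again lower, by −0.37 ± 0.30 on the log2 scale (limma, adjusted p = 0.8005).

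The other regions of Lgmn did not share that order as a group. Counting those at +45082 and +13147 bp, 4 of the 8 Lgmn regions in all 4 libraries had negative and 4 positive changes. Of these 8, 3 were below both controls, where the share of all regions was 18.6%. None of them was above, where the share of all regions was 19.2%. The promoter between the upstream and intronic regions was level, as given above.

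Ctsd (Entrez 13033, chr7:142375910-142387827) had all 6 of its regions at or upstream of the promoter. The region with the highest mean score as deposited, at −11634 bp (chr7:142399341-142399668), carries 2 PU.1, 1 C/EBP and 1 AP-1 letters in its window, and scored 16.09 and 14.79 in control and 8.23 and 8.45 after IL-4. In the scores as deposited, replicates of a group were close to each other and the groups apart. The mean score was 15.44 ± 0.92 in control against 8.34 ± 0.16 after IL-4 (SD, n = 2). The IL-4 replicates were less close after normalisation, with log2 scores of 3.806 and 3.867 in control and 2.998 and 3.372 after IL-4. The log2 change after normalisation was −0.65 ± 0.41 (limma, adjusted p = 0.711). Of the 5 Ctsd regions found in all 4 libraries, 4 were negative and the promoter positive.

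Ctsk (Entrez 13038, chr3:95499210-95509387), the collagenase that osteoclasts secrete, and Ctss (Entrez 13040, chr3:95526786-95556405) are neighbours on chromosome 3. The highest region of the pair, at +12639 bp from the Ctsk TSS (chr3:95511764-95512086), lay in the interval between the 2 genes. It scored 27.06 and 17.67 in control and 12.74 and 10.97 after IL-4, with both IL-4 libraries below both controls. The log2 change was −0.69 ± 0.33 (limma, adjusted p = 0.584), and −0.46 without control replicate 1. No promoter region was found at Ctsk, whose nearest region, at −1509 bp where Arnt ends (chr3:95497701-95497962), scored 3.70 and 2.98 in control and 4.88 in IL-4 replicate 1, and only 42.7% of its 50-base words occur once in the genome. That share was 44.9% at the fitted Ctsk region at +5606 bp, and 0% at the Lyz2 region at +7397 bp, which had a peak in 1 library.

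In intron 2 of Ctss the region at +3245 bp (chr3:95529900-95530151) scored 13.43 and 11.95 in control and 6.95 and 5.58 after IL-4. Both controls were above both IL-4 libraries, at a mean of 12.69 ± 1.05 against 6.27 ± 0.97 (SD, n = 2). The log2 change was −0.78 ± 0.47 (limma, adjusted p = 0.691). The region was therefore far stronger than the promoter of the same gene, which had a peak in 2 libraries.

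Ctsl (Entrez 13039, chr13:64361890-64370772) had the level promoter given above and a distal region with lower scores after IL-4. Promoter and distal regions were not compared by a test. The region at −27951 bp (chr13:64398113-64398424), also named after its values were seen, scored 18.35 and 11.67 in control and 10.43 and 5.39 after IL-4. The groups did not overlap, and the log2 change was −0.74 ± 0.44 (limma, adjusted p = 0.684). AP-1 letters stand in its window, as they do at Ctsb +10013, Ctsd −11634, Lgmn +13147 and Ctsk +12639.

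Those 5 regions are the AP-1 matches among the 11 regions below control (45.5%), whereas 3 of the other 19 held one (15.8%). For all genes AP-1 letters were in 23.8% of the 4723 regions below control and in 17.5% of the 20719 others. The STAT6 palindrome was in 0 of the 11 and in 3 of the 19, against 2.33% and 5.85% for all genes. This split by group order was made after the values were seen and carries no test.

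Ctsz (Entrez 64138, chr2:174427494-174439039) was the gene of the set in which both regions found in all 4 libraries lay above control. The region in intron 2 at +1079 bp had the largest positive change of the 30 in this fit, with scores of 14.81 and 8.67 in control and 22.58 and 16.26 after IL-4. Both IL-4 libraries were above both controls, and the log2 change was 0.97 ± 0.36 (limma, adjusted p = 0.4145). It was exceeded by Ctsb −18170 without the filter (1.23) and without IL-4 replicate 1 (1.28), and by Lyz1 +4477 without control replicate 1 (1.42).

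STAT6 palindromes stood in the windows of Ctsz +1079 bp, of Ctss −5451 bp and of the 3′ UTR regions of both lysozymes. That of Lyz2 lay beyond the end of the region itself. The Ctss region (chr3:95521203-95521548), named after its values were seen, scored 7.85 and 3.71 in control and 5.83 and 6.99 after IL-4, with groups that overlapped.

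Lyz2 (Entrez 17105, chr10:117277541-117282272) is the lysozyme of myeloid cells, and Lyz1 (Entrez 17110, chr10:117287795-117292868) is best known from Paneth cells of the gut. The Lyz2 promoter (−39 bp, chr10:117282075-117282416) had a peak in all 4 libraries, at 10.44 and 9.09 in control and 7.62 and 13.72 after IL-4, whereas no region covered the Lyz1 promoter. The IL-4 libraries lay on either side of the controls (log2 change 0.29 ± 0.46; limma, adjusted p = 0.922), and without IL-4 replicate 2 the change was −0.28. In the Lyz2 region 87.4% of 50-base words occur once in the genome, and in the 300 bp promoter windows of both genes 85.3%. How reads that match both copies were handled is not given in the sources used here.

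The pattern was the reverse at the 3′ ends. The Lyz1 region in exon 4, within the 3′ UTR at +4477 bp (chr10:117288260-117288529), scored 30.13 and 8.96 in control and 31.66 and 15.27 after IL-4, and the matching part of Lyz2 at +4341 bp (chr10:117277880-117277982) had a peak in control replicate 2 alone, at 4.07. Replicate 1 was high and replicate 2 low in both groups at Lyz1, so the groups overlapped (log2 change 0.59 ± 0.34; limma, adjusted p = 0.673). Without control replicate 2 the change was −0.23. The Lyz1 region was 94.8% identical to its Lyz2 counterpart, and 94.1% of its 50-base words were unique. This region was the second highest of the 30, at the 84.7th percentile of all regions by mean normalised score.

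Farther upstream of Lyz1, at −31118 bp (chr10:117323895-117324153), the scores were 10.62 and 4.95 in control and 4.0 and 2.49 after IL-4. Both IL-4 libraries were below both controls, with a log2 change of −0.97 ± 0.55 (limma, adjusted p = 0.661), which was −0.57 without control replicate 1. The controls themselves differed by more than the lower control differed from the higher IL-4 library. The region at −11702 bp (chr10:117304468-117304671), named after its values were seen, had a wider spread, with 22.04 and 9.88 in control, 4.37 in IL-4 replicate 1 and no peak in IL-4 replicate 2. It was not fitted because 1 library lacked a peak.

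Lamp1 (Entrez 16783, chr8:13159161-13175338) had scores of 3.57 to 7.35 where a peak was listed. None of its 3 regions had a peak in all 4 libraries, and none had a peak in IL-4 replicate 2. The third region, in intron 1 at +1792 bp (chr8:13160862-13160992), scored 7.35 in IL-4 replicate 1 alone. The Lamp1 values therefore allow no comparison of levels.

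**Figure D4:**
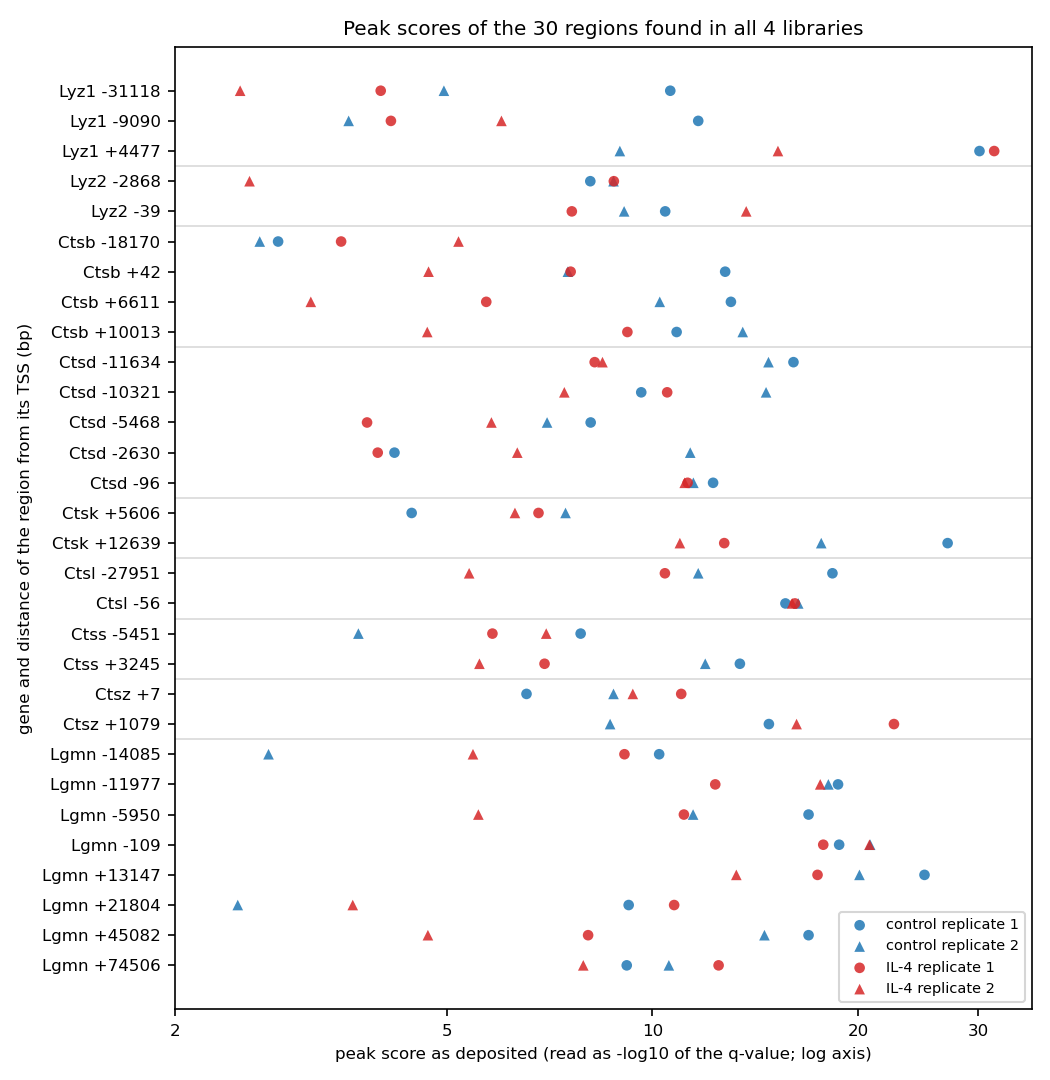
Peak score as deposited (x axis, log scale, taken as −log10 q) of each library at the 30 regions found in all 4 libraries, named by gene and distance from the TSS in bp (y axis), with blue for control and red for IL-4, circles for replicate 1 and triangles for replicate 2. The Ctsl promoter shows 4 nearly coincident points between 15.66 and 16.35, while at Ctsd −11634 both red points (8.23 and 8.45) lie below both blue ones (14.79 and 16.09).

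Other lysosomal genes were examined as a further list of 38 genes, comprising the remaining cathepsins, cystatin inhibitors, hydrolases and their carriers, other lysozyme-family genes and the placental cathepsins. Regions were found for 24 of the genes, and 61 of their 131 regions had a peak in all 4 libraries. None of the 61 passed the limma threshold in either direction, and 5 had an unadjusted p under 0.05, beside 4.12% higher and 4.15% lower for all regions. Of these 61, 14 (23.0%) were below both controls against 18.6% of all regions and 8 (13.1%) above against 19.2%, with a median log2 change of −0.12. Among the other cathepsins 7 of 24 were below (29.2%) and 3 above (12.5%), with a median of −0.19. Among the hydrolases and carriers 4 of 25 were below (16.0%) and 3 above (12.0%), with a median of −0.12. The remaining lists had 1 to 6 such regions each. The placental cathepsins, which serve as a contrast because macrophages are not known to use them, had regions at 2 of 9 genes.

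The 3 regions of that list with the lowest p included 2 that were higher after IL-4. At the promoter of Cst7 (−26 bp, chr2:150570271-150570554), which codes for cystatin F, an inhibitor of lysosomal cathepsins in immune cells, the scores were 7.15 and 5.63 in control and 18.45 and 13.82 after IL-4. Both IL-4 libraries were well above both controls, with a log2 change of 1.54 ± 0.44 (limma, adjusted p = 0.244). Upstream of Psap, the precursor of the saposins that help degrade sphingolipids, the region at −7825 bp (chr10:60269675-60269978) scored 4.17 and 2.81 in control and 8.12 and 8.98 after IL-4. Both IL-4 libraries were again above both controls (log2 change 1.54 ± 0.54; limma, adjusted p = 0.389).

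Ctsh, an aminopeptidase among the cathepsins, had the third of these regions, at −11190 bp (chr9:90042956-90043183). Its scores were 18.42 and 11.53 in control and 5.05 and 5.12 after IL-4, so both IL-4 libraries were below both controls. The log2 change was −1.29 ± 0.48 (limma, adjusted p = 0.418).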

How the data were processed

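ATAC-seq peak lists of 4 libraries were used, 2 control and 2 IL-4, grouped by the labels. According to the methods and the processing notes of the submitters, reads were aligned to mm10 with BWA 0.7.10, handled with SAMtools 0.1.19, called into peaks per library with MACS2 2.0.10 and annotated with HOMER 4.2. Handling of duplicates and the Tn5 shift are not given in the sources used here. The score the authors deposited was read as −log10 of the q-value, since its lowest value is 1.3, near −log10 of 0.05, although no source states the unit and the methods name a q cut-off of 0.01 (a score of 2). It is not a read count, so the tool the authors applied to reads could not be used.

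Autosomal, X and Y peaks overlapping by 1 bp were merged, and the highest score per library was kept, with the annotation taken from the top peak. For the 25442 regions shared by the 4 libraries, log2 scores were quantile-normalised and fitted by limma 3.58.1 in R 4.3.3 (eBayes with a trend, Benjamini-Hochberg adjustment over all regions, threshold 0.05). The requirement for a peak in every library left 30 of the 61 regions in the fit. Both groups carry replicate numbers 1 and 2, but over all regions the difference between replicates 1 and 2 in control correlated with that in IL-4 at r = 0.00677 (Spearman 0.00637, across regions), so the numbers were not treated as pairs.

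Motifs were searched on both strands within 100 bp to either side of the centre of the highest peak, and promoter windows were the 300 bp RefSeq sequences (250 before and 50 after the TSS), which matched 9 of the 10 genes. Uniqueness was the share of 50-base words found once in the assembled chromosomes on either strand. Members, lists and tests were chosen with earlier results of these data known. For each gene the nearest and the highest region were named, with regions found in 1 group only. Regions with a limma unadjusted p under 0.05 and the 5 largest changes were also named. Exceptions are marked, apart from Ctsz −655, Lamp1 +1792 and Lyz2 +4341, whose scores are given without a mark.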

Additional observations from a re-analysis of the deposited data

How the results depend on the processing

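With 2 libraries per group and no depths, changes below the spread of replicate scores could not be detected. The 30 member regions stayed without a call under all 12 alternatives, and the lowest adjusted p of the 16 named regions was 0.2287. Over all regions limma called 4 higher and 2 lower. Those counts were 0 and 0 without the trend, with all 60710 regions (missing peaks at the lowest score) and with summed scores. Leaving out 1 library gave 0 to 14 higher and 0 lower, with 14 higher without control replicate 2. The replicate block gave 11 higher. The numbers are not shown to pair the libraries, and the block called no member.

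The median log2 change of the members was 0.01294 with a minimum score of 5, which kept 16 regions, and ran from −0.28 without IL-4 replicate 2 to 4.946e-05 without IL-4 replicate 1. The minimum drops a region for a low score in any library, so it can drop regions because they are low after IL-4. Ctsb +6611, at 3.16 in IL-4 replicate 2, was dropped. At that minimum 6 of 16 regions were below control, where the main fit had 11 of 30. Of the same 16 regions 2 were above, where the main fit had 3 of 30. There 16 had a peak in all 4 libraries, 0 were IL-4-only and 2 control-only. The shares of all regions at that minimum are not given here, so these counts have no background beside them. Without IL-4 replicate 2, chosen after seeing the data, 14 of 30 were below against 34.1% of all regions. In that comparison 6 were above against 34.7%. TTCNNNGAA was in 6 whole regions against 2 windows. Of the 16 named regions 12 kept their direction in every alternative that fitted them. The named Ctsb regions, Lgmn +45082 and Lyz1 −31118 were not fitted with a minimum score of 5. The Ctsl promoter turned to −0.13 with summed scores. With 1 library left out, the Lgmn promoter ran from −0.11 to 0.40 (negative without control replicate 1 or IL-4 replicate 2), Lyz1 +4477 from −0.23 (without control replicate 2) to 1.42, and the Lyz2 promoter from −0.28 (without IL-4 replicate 2) to 0.87. The cause was not tested.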
